A study of Mus musculus with 6 samples.

Results

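Bulk RNA-seq of E12.5 mouse lateral cortex was used to examine 10 genes that load and run the DNA replication machinery: Mcm2, Mcm3, Mcm4, Mcm5, Mcm6, Mcm7, Pcna, Rfc3, Rfc4 and Cdc6. They were chosen by name, and all 10 were among the 17068 genes of the filtered count table. The table held 6 libraries, 4 from Cre-negative controls and 2 labelled Foxp1cKO, each from c57/bl6 female embryos at embryonic day 12.5. Controls 1, 2 and 4 were Foxp1 fl/+, control 3 was Foxp1 fl/fl, and the libraries labelled Foxp1cKO were Foxp1 fl/fl;Emx1Cre. Every embryo therefore carried at least 1 floxed Foxp1 allele, and none of the controls carried Cre. Emx1Cre recombines in progenitors of the dorsal telencephalon and their descendants, so vessels, blood, meninges and ventrally derived neurons in the dissected tissue keep Foxp1. The comparison asks how transcripts of the replication machinery differ when Foxp1 is deleted from cortical progenitors.

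Mcm2 to Mcm7 encode the 6 subunits of the ring that forms the core of the replicative helicase. The origin recognition complex, Cdc6 and Cdt1 load this ring onto DNA before S phase, and the ring is later activated with Cdc45 and the GINS proteins. Pcna encodes the sliding clamp that holds DNA polymerases on the template, and replication factor C, built from Rfc1 to Rfc5, opens the clamp and places it on primed DNA. Transcription of these genes rises at the G1/S transition under E2F factors. In the embryonic cortex the dividing cells are radial glia of the ventricular zone and the intermediate progenitors they produce, while neurons have left the cell cycle.

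The libraries held 50076008 to 78346979 counts, and values are given as CPM, gene counts divided by the library total after scaling with edgeR's TMM factors. Foxp1 itself was at 59.7, 60.8, 71.2 and 79.1 CPM in controls 1 to 4 and at 83.2 and 76.8 CPM in the libraries labelled Foxp1cKO. Whole-gene RNA of the targeted gene was therefore not lower in the libraries with the conditional genotype (log2 fold change 0.24 ± 0.13, SE, adjusted p = 0.468, edgeR's quasi-likelihood test, Benjamini-Hochberg adjusted). The paper cites earlier work by its authors for Cre recombination and a significant loss of Foxp1 protein before this stage. Reads from the floxed exons cannot be singled out in a gene-level count, so the genotype is used as labelled. Tissue markers were present in every library, with radial glia markers such as Pax6, Hes5 and Nes at a summed 2532 to 3026 CPM and neuron markers such as Dcx, Map2 and Tbr1 at a summed 3081 to 5793 CPM. Control 3 carried a summed 824 CPM of ventral telencephalon markers against 232 to 515 CPM elsewhere, and its Nkx2-1 was at 13.2 CPM against 0.216 to 1.07 CPM. In bulk tissue, fewer cells of a type and less RNA per cell cannot be told apart.

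Because these genes are known E2F targets, their promoters were searched for 4 E2F octamers, TTTGGCGC, TTTCGCGC, TTTCCCGC and TTTGCCGC, on both strands. RefSeq promoter windows, from 250 bases before to 50 bases after a start site on GRCm38.p6, were found for 9 of the 10 genes, and Mcm4 was not matched. An octamer lay in 6 of these 9 genes, namely Mcm3, Mcm5, Mcm6, Mcm7, Rfc3 and Cdc6, while 704 of the 27025 genes in the promoter table (2.605%) had one. The Mcm2, Pcna and Rfc4 windows held none of these letters. The stretches with a match are shown here 5′ to 3′ along the gene's strand, with the octamers in capitals. In Mcm6 and Mcm5 a pair of octamers on opposite strands overlap, so the capitals run on.
Mcm3, chr1:20820266-20820294, minus strand: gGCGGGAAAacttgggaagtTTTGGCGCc
Mcm5, chr8:75109347-75109376, plus strand: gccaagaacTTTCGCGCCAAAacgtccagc
Mcm6, chr1:128359795-128359824, minus strand: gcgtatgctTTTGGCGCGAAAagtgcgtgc
Mcm6, chr1:128359735-128359762, minus strand: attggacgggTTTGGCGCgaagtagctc
Mcm7, chr5:138172031-138172058, minus strand: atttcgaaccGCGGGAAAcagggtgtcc
Mcm7, chr5:138171850-138171877, minus strand: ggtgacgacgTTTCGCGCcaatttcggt
Rfc3, chr5:151651195-151651224, minus strand: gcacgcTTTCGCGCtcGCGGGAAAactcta
Cdc6, chr11:98908003-98908030, plus strand: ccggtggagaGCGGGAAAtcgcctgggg
The match nearest to a start site was in Rfc3, where the second octamer begins at base 1. The CCAAT box was present in 7 of the 9 genes against 41.1% of all genes in that table. The forkhead letters TGTTTAC were present in 1 gene, at the second of 2 Mcm7 start sites, against 4.05% of all genes.

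All 6 subunits of the MCM ring had lower group means in the libraries labelled Foxp1cKO, and none passed the test. Mcm2 (chr6:88883474-88898780 in the GENCODE annotation of GRCm38, as for all gene positions here) was at 255, 234, 198 and 276 CPM in controls 1 to 4 and at 206 and 200 CPM in the libraries labelled Foxp1cKO. Mcm4 (chr16:15623897-15637400) was at 197, 184, 153 and 224 CPM against 163 and 152 CPM. Mcm7 (chr5:138164583-138172422) was at 346, 317, 263 and 402 CPM against 275 and 291 CPM. For each of these subunits both libraries labelled Foxp1cKO lay below controls 1, 2 and 4 and close to control 3. Mcm5 (chr8:75109569-75128439) was at 221, 193, 161 and 270 CPM against 172 and 181 CPM, with both values above control 3 alone.

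Mcm3 and Mcm6 stood nearer to the controls than the other subunits. Mcm3 (chr1:20802968-20820312) was at 207, 199, 152 and 267 CPM in controls 1 to 4 and at 194 and 189 CPM in the libraries labelled Foxp1cKO. Mcm6 (chr1:128331590-128359664) was at 259, 247, 201 and 347 CPM against 239 and 250 CPM, so that 1 of these libraries lay above control 2 and the other below it. The log2 fold changes were -0.25 for Mcm2, -0.11 for Mcm3, -0.27 for Mcm4, -0.26 for Mcm5, -0.11 for Mcm6 and -0.23 for Mcm7, with standard errors of 0.13 to 0.20. Adjusted p-values ran from 0.468 for Mcm2 to 0.853 for Mcm3 (edgeR's quasi-likelihood test, Benjamini-Hochberg adjusted). Mcm7 shares 321 exonic bases with Ap4m1 and 64 with Cops6, both on the opposite strand, which is 7.25% and 1.45% of its merged exons.

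**Figure D1:**
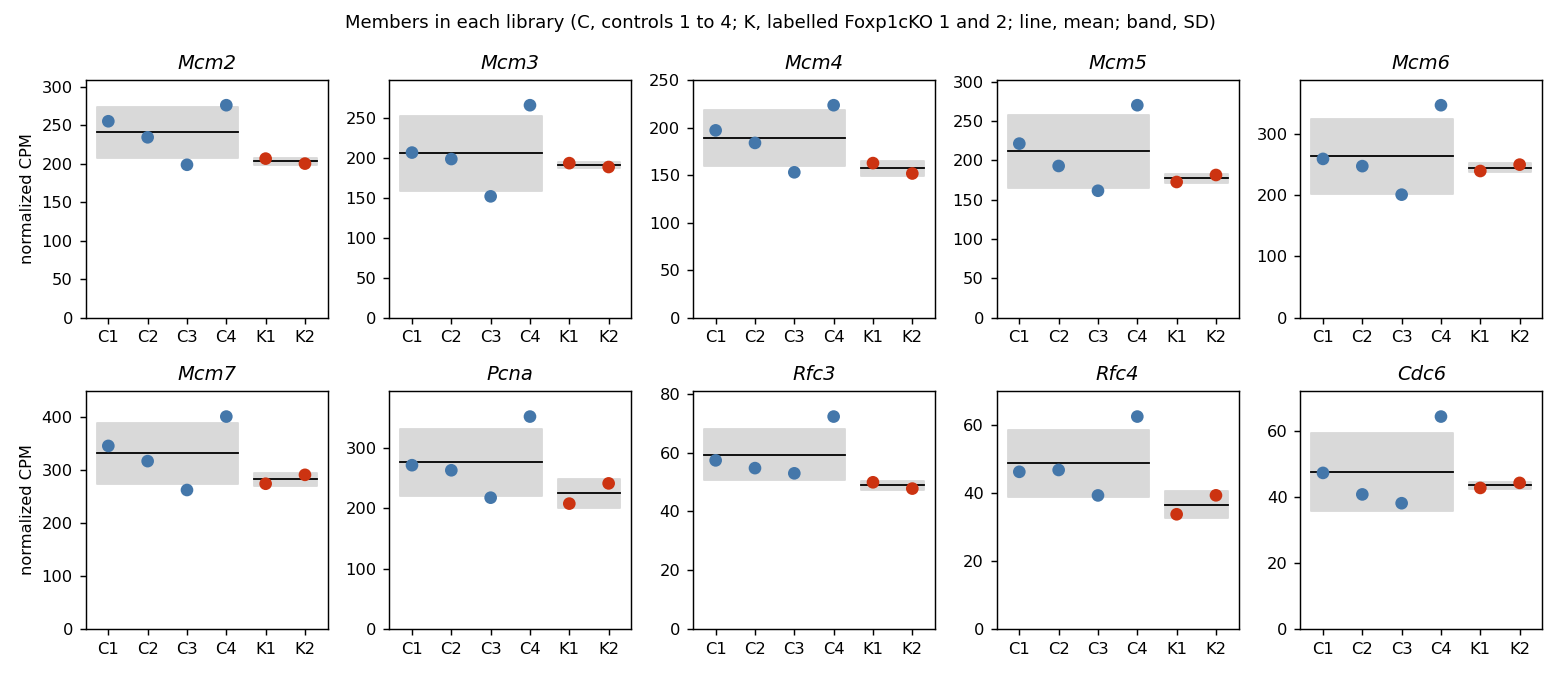
Normalized CPM (vertical axes from 0) of the 10 genes in each library, with controls 1 to 4 in blue and the libraries labelled Foxp1cKO in red; lines are group means and bands the SD. Control 4 is the highest point in all 10 panels, and the red points overlap the range of the blue points in every panel except that of Rfc3.

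The clamp gene Pcna and the loader genes Rfc4 and Rfc3 had the lowest estimates among the 10 genes. These also did not pass the test, and Pcna and Rfc3 lay close to Mcm4 at -0.27. Pcna (chr2:132249162-132253314) was at 272, 263, 218 and 352 CPM in controls 1 to 4 and at 208 and 241 CPM in the libraries labelled Foxp1cKO, a log2 fold change of -0.30 ± 0.18 (SE). Those libraries fell on either side of control 3. The small Rfc4 subunit of the loader (chr16:23113943-23127737) was at 46.2, 46.8, 39.3 and 62.5 CPM against 33.7 and 39.3 CPM. This was the lowest estimate of the 10, a log2 fold change of -0.41 ± 0.18 with a 95% interval of -0.85 to 0.019 (adjusted p = 0.402, edgeR's quasi-likelihood test, Benjamini-Hochberg adjusted). The second of those libraries and control 3 differed by less than 0.1 CPM. Of Rfc4's merged exons, 12.7% lie opposite Eif4a2, which was at 297 to 324 CPM with a log2 fold change of 0.018.

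Rfc3 (chr5:151642756-151651242), another small subunit of the loader, was at 57.4, 54.7, 52.9 and 72.3 CPM in controls 1 to 4 and at 49.9 and 47.7 CPM in the libraries labelled Foxp1cKO. It was the 1 member with both of these libraries below every control, a pattern shown by 13.1% of all genes. Its log2 fold change was -0.28 ± 0.14 (adjusted p = 0.430, edgeR's quasi-likelihood test, Benjamini-Hochberg adjusted). Cdc6 (chr11:98907801-98923940), the loading factor that joins the origin recognition complex, was at 47.3, 40.8, 38.1 and 64.4 CPM against 42.8 and 44.3 CPM. Both values lay between those of controls 2 and 1, and the log2 fold change was -0.13 ± 0.21.

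Across the set, all 10 estimates were negative, with a median log2 fold change of -0.25 against -0.0044 over all genes, of which 50.7% were lower. No member passed the adjusted threshold of 0.05 in edgeR's test, where 26 of 17068 genes (0.152%) did, and those 26 were all higher. At an unadjusted p under 0.05 in edgeR's test, 0 members were called, against 6.50% of all genes called lower. DESeq2 called 0 members at an adjusted p under 0.05, against 1.31% of its tested genes called lower. At an unadjusted p under 0.05 DESeq2 called 1 member, and 2376 genes in either direction over the whole set of genes. The members' estimates are not independent of each other, since each member correlated with the mean of the other 9 at a Pearson's r of 0.907 to 0.991 over the 6 libraries. Every 95% interval crossed 0. The authors' model also held the litter, which the labels do not give, so these calls come from group alone. The paper also reports DNA replication terms as underrepresented without Foxp1. In the paper, the DESeq2 fit with litter calls Rfc4, Pcna, Rfc3 and Cdc6 significantly lower, among its top downregulated genes. For these genes the calls given here therefore differ from those of the paper. The paper's values for these genes also lie further below 0 than the estimates given here. No fit with litter was run here, and the reason for the difference was not tested. The lower bounds of the 95% intervals reached log2 fold changes of -0.85 for Rfc4 and -0.73 for Pcna, and the upper bounds reached 0.36 for Mcm3, Mcm6 and Cdc6.

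**Figure D2:**
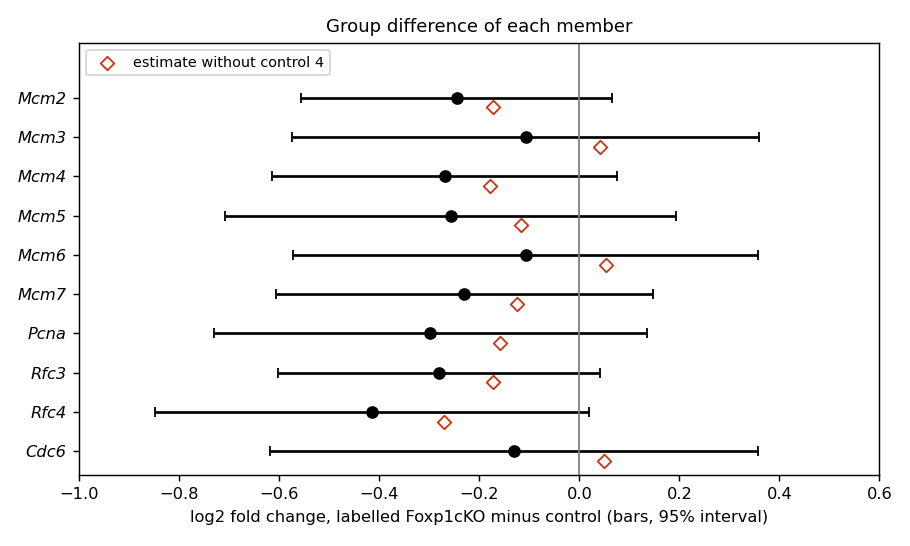
Log2 fold change of each gene in the libraries labelled Foxp1cKO against the controls (horizontal axis), with black points and bars for the edgeR estimate and its 95% interval from all 6 libraries and open red diamonds for the estimate without control 4. All 10 black points lie below 0 with intervals that cross it, and the diamonds of Mcm3, Mcm6 and Cdc6 lie above 0.

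The spread among controls was of a size similar to the group difference. The SD of log2 CPM over the 4 controls was 0.20 for Rfc3 and Mcm2 and up to 0.34 for Cdc6, and it exceeded the size of the log2 fold change in 5 of the 10 genes. The distance from the lowest to the highest control was 0.45 for Rfc3 and 0.81 for Mcm3 on the log2 scale. Control 4 held the highest value and control 3 the lowest control value in all 10 genes, and in 6 genes control 3 was the lowest of the 6 libraries. Counting error was small beside this, at most 0.035 on the log2 scale, from 1698 to 31616 counts per gene and library. Among all genes the members' SD over the controls stood at the 50.9th to 71.4th percentile.

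The estimates therefore depended on which controls were used. Set against control 4 alone, the mean of the libraries labelled Foxp1cKO was lower by 0.44 (Mcm2) to 0.78 (Rfc4) on the log2 scale in all 10 genes. Against control 1 it was lower in all 10 as well, from -0.34 for Rfc4 to -0.084 for Mcm6. Against control 2 Cdc6 was at 0.093 and the other 9 genes were between -0.36 and -0.016. Against control 3, the 1 control with the same floxed genotype, 8 genes were higher, from 0.034 for Mcm2 to 0.33 for Mcm3, with Rfc3 at -0.12 and Rfc4 at -0.11. Control 3 also had the highest ventral telencephalon marker sum of all libraries, 824 CPM, and the highest neuron marker sum, 5793 CPM. Its genotype and its tissue content cannot be told apart here.

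In refits without control 4, the members' median was -0.14, 7 of 10 were lower and 0 had an unadjusted p under 0.05, where 9.36% of all genes were called lower. Mcm3 was then at 0.041, Mcm6 at 0.053 and Cdc6 at 0.049. Without control 3 the median was -0.34, and 7 members had an unadjusted p under 0.05, where 9.39% of all genes were called lower on that rule. With controls 1 and 2 alone the median was -0.23, 10 of 10 were lower and 7 had an unadjusted p under 0.05, where 10.2% of all genes were called lower. No member passed the adjusted threshold in any of these fits by edgeR's quasi-likelihood test, the lowest adjusted p being 0.139 with controls 1 and 2 alone.

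The proportions of the members to each other were also compared. When each gene was expressed relative to the mean log2 CPM of the other 9, Mcm6 was 0.15 higher in the libraries labelled Foxp1cKO, with ratios of 1.01 and 1.03 against 0.84, 0.88, 0.81 and 0.96 in controls 1 to 4. Rfc4 was 0.20 lower, with ratios of -2.13 and -1.93 against -1.92, -1.79, -1.80 and -1.79. These groups did not overlap, and the exact two-sided permutation p was 0.0667 for each, the smallest that 4 libraries against 2 can give. Each ratio draws on the other 9 genes, so the ratios are not independent of each other. The share of all genes without overlap was not computed for such ratios. Mcm3 was 0.15 higher, also above every control (exact permutation p = 0.133). For the other 7 genes the groups overlapped, from Cdc6 at 0.13 higher to Pcna at 0.073 lower, and Mcm7 differed by less than 0.001.

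**Figure D3:**
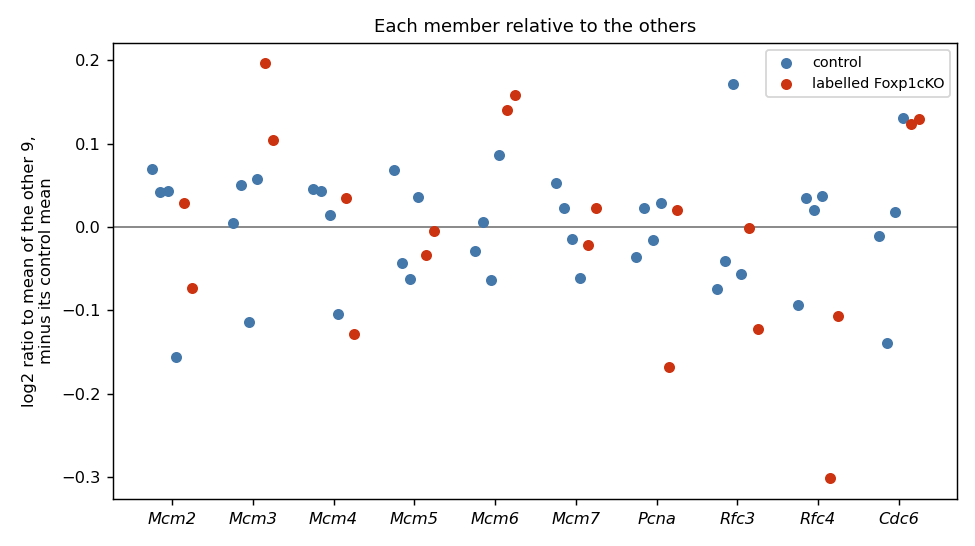
Log2 level of each gene relative to the mean of the other 9, minus its control mean (vertical axis), with 1 point per library, blue for controls and red for the libraries labelled Foxp1cKO. Both red points lie above all blue points for Mcm3 and Mcm6 and below them for Rfc4.

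Per kilobase of merged exon, levels can be compared between the genes. Pcna was the most abundant, at 115 ± 23.3 CPM per kilobase for the 4 controls (mean ± SD) and 93.6 ± 9.89 for the 2 libraries labelled Foxp1cKO, at the 98.8th percentile of genes. Mcm7 followed at 75.0 ± 13.1, and then Mcm6, Mcm3, Mcm5 and Mcm4 at 56.5 ± 13.1, 55.0 ± 12.5, 52.9 ± 11.6 and 52.8 ± 8.19 CPM per kilobase. Those 4 neighbours differed by less than their spread, while in each of the 6 libraries Pcna was above Mcm7 and Mcm7 above the other subunits. Mcm2 at 34.6 ± 4.74 and Rfc4 at 31.8 ± 6.40 were also within their spread of each other, above Rfc3 at 16.4 ± 2.44 and Cdc6 at 9.12 ± 2.26, the last at the 65.4th percentile.

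The place of Mcm2 depended on its annotated length. Its merged exons cover 6956 bases and its longest transcript 3494 bases, and with the longest transcript it stood at 68.9 ± 9.44 CPM per kilobase, in place 3 rather than 7. With that length Pcna was at 182, Mcm7 at 112 and Rfc3 at 21.8 CPM per kilobase, and their order did not move. Within the ring, the 6 subunits would each make up an equal share if their transcripts per length were equal. Per merged exon, Mcm7 made up 23.0% ± 0.443 of the summed level in controls and Mcm2 10.7% ± 0.627, and with the longest transcripts these were 26.9% ± 0.379 and 16.6% ± 0.894. Mcm3 made up 16.7% ± 0.692 in controls and 17.9% ± 0.454 in the libraries labelled Foxp1cKO, where both values, 18.2% and 17.6%, lay above every control, as they did with the longest transcripts. Mcm6 went from 17.2% ± 0.777 to 18.4% ± 0.419 with overlap, and the other 4 subunits had lower mean shares, also with overlap. A higher share of 1 subunit lowers the shares of the others, and the differences in share were not tested.

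**Figure D4:**
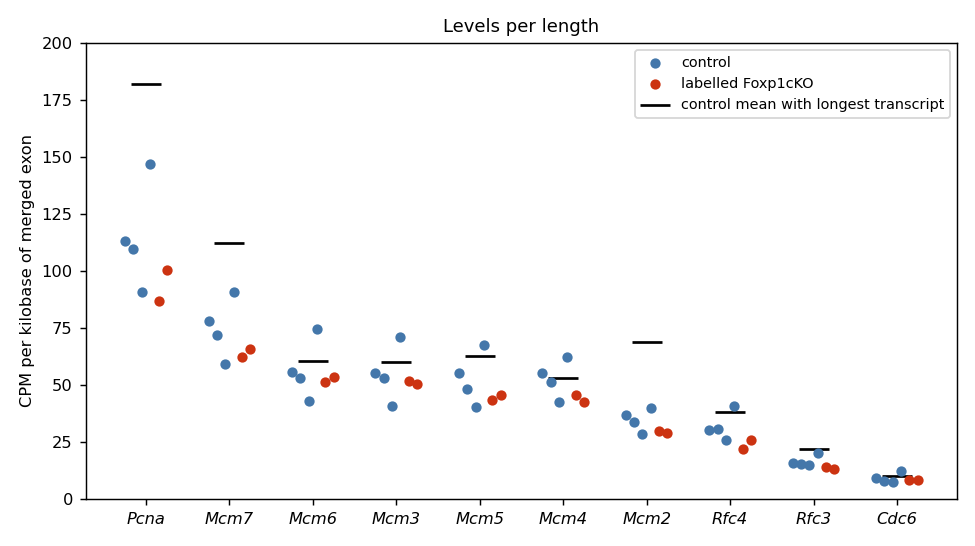
CPM per kilobase of merged exon (vertical axis from 0) for each gene and library, ordered by control mean, with blue points for controls, red points for the libraries labelled Foxp1cKO and black bars for the control mean computed with the longest transcript. Pcna and Mcm7 are highest on both lengths, and Mcm2 is the gene whose place changes most between them.

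Most of the remaining MCM genes had estimates above 0, unlike the ring subunits. Mcm10, which helps to activate the helicase, was at -0.054 on the log2 scale, the 1 negative value of 5. Mcmbp, which binds MCM subunits, was at 0.039, and Mcm8 and Mcm9, which act together in homologous recombination, were at 0.11 and 0.28. Mcmdc2, a meiotic MCM-domain gene at 2.96 to 5.78 CPM, was also at 0.28. None passed the test, their groups overlapped, and their difference from the ring subunits was not tested. For Mcm9, controls 1 to 4 were at 23.1, 21.3, 18.9 and 28.9 CPM and the libraries labelled Foxp1cKO at 28.6 and 27.3 CPM, with a 95% interval of -0.12 to 0.67 on the log2 scale.

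Of 13 other clamp and clamp loader genes, 11 were lower, with a median of -0.090 and 0 past the adjusted threshold. Among the remaining loader subunits, Rfc2 was at 97.9, 85.8, 83.6 and 112 CPM in controls and at 79.6 and 83.4 CPM in the libraries labelled Foxp1cKO. Its log2 fold change was -0.22, with both values below every control, as for 13.1% of all genes. Rfc1, the large subunit, was at -0.10 and Rfc5 at -0.087, with overlap. The partners of alternative loaders were at -0.30 for Chtf18, -0.14 for Chtf8, 0.037 for Dscc1, -0.046 for Atad5 and -0.019 for Rad17. Pclaf, a PCNA-binding factor, was at -0.24. Of the checkpoint clamp, Rad9a, Rad1 and Hus1 were at -0.11, -0.090 and -0.088. Rad9b was at 15.0, 14.0, 15.4 and 11.9 CPM against 20.1 and 17.3 CPM, with a log2 fold change of 0.41 (adjusted p = 0.314, edgeR's quasi-likelihood test, Benjamini-Hochberg adjusted). Both values lay above every control, as for 1965 of 17068 genes.

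Genes that act before and around the helicase were mostly lower, and 0 passed the adjusted threshold. Of 23 origin licensing and firing genes, 18 were lower with a median log2 fold change of -0.15, with Recql4, a helicase of origin firing, at -0.38 and Gins3, a GINS subunit, at -0.30 lowest. Ticrr, the firing factor treslin, at 0.22 and Dbf4, the activator of the Cdc7 kinase, at 0.12 were highest. Cdt1 was not analysed here. Of 12 DNA polymerase and primase genes, 9 were lower with a median of -0.062. Pole3, a small subunit of polymerase epsilon, was lowest at -0.34, with the primase subunit Prim1 at -0.26, and the polymerase delta subunits Pold4 and Pold2 were highest at 0.16 and 0.061.

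All 9 lagging strand and single-strand binding genes were lower, with a median of -0.24, from Fen1, the flap endonuclease, at -0.37 and Rpa1, the large single-strand binding subunit, at -0.34 to Lig1, the Okazaki fragment ligase, at -0.11 and Rnaseh2b at -0.051. The 7 nucleotide supply genes were all lower with a median of -0.27. Among these, Rrm2, the small subunit of ribonucleotide reductase, was at 312, 320, 287 and 362 CPM in controls 1 to 4 and at 257 and 229 CPM in the libraries labelled Foxp1cKO, below every control. Its log2 fold change was -0.40 ± 0.11 with an adjusted p of 0.270 in edgeR's quasi-likelihood test and 0.0464 in DESeq2, the 1 gene of these pathway lists that DESeq2 called. Tyms, thymidylate synthase, was at -0.40. Like Rrm2 and 13.1% of all genes, it had both libraries labelled Foxp1cKO below every control. Dctpp1 and Dut, at -0.24 each, were the least negative.

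The E2F and RB family, which regulates G1/S transcription, was centred near the median of all genes, with 8 of 13 lower, a median of -0.029 and values from -0.15 for E2f1 and -0.091 for E2f7 to 0.085 for E2f5 and 0.10 for Rb1. Histone chaperone and maintenance methylation genes were lower in 7 of 7, with a median of -0.15, between Chaf1b at -0.31 and Nasp at -0.22 and Chaf1a at -0.11 and Dnmt1 at -0.093. Of 18 G2 and mitosis genes, 17 were lower, with a median of -0.089. They lay between Cdc20 at -0.26 and Ccnb2 at -0.20 and Bub1 at -0.022 and Cenpf at 0.0085. The difference between the medians of these lists was not tested.

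Cell type markers differed between the same libraries. The members' summed level was 1908, 1780, 1476 and 2336 CPM in controls 1 to 4 and 1584 and 1636 CPM in the libraries labelled Foxp1cKO. The 10 analysed neuron markers summed to 4363, 5281, 5793 and 3081 CPM against 4188 and 4326 CPM, so that among controls they were highest where the members were lowest. The libraries labelled Foxp1cKO had neuron sums close to that of control 1 and member sums below it. The 9 analysed radial glia markers summed to 2807, 2951, 2532 and 3026 CPM against 2942 and 2859 CPM, within the range of the controls. Their log2 fold changes ran from -0.43 for Fabp7 to 0.49 for Hes1, with 6 of 9 above 0. Sox2 and Tubb3 were not analysed here.

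G2 and mitosis genes summed to 5376, 5139, 4508 and 6372 CPM in controls and to 5264 and 4742 CPM in the libraries labelled Foxp1cKO. The 6 intermediate progenitor markers were all lower, with a median log2 fold change of -0.24 and sums of 939, 1003, 778 and 764 CPM against 714 and 808 CPM. The 7 erythroid markers were all higher, with a median of 1.11 and sums of 1303, 1005, 1049 and 3400 CPM against 3719 and 4001 CPM. Control 4, highest for every member, thus also carried the most erythroid and the least neuronal RNA among the controls. Endothelial markers summed to 135 to 208 CPM in controls and 196 to 239 CPM in the libraries labelled Foxp1cKO, with 6 of 8 estimates above 0. Flt1, a VEGF receptor, was at 18.1, 15.5, 12.5 and 17.4 CPM in controls 1 to 4 and at 44.6 and 54.2 CPM in the libraries labelled Foxp1cKO, a log2 fold change of 1.64 ± 0.16 (adjusted p = 0.0179, edgeR's quasi-likelihood test, Benjamini-Hochberg adjusted). The other endothelial markers were at 0.65 for Pecam1, 0.52 for Emcn, 0.18 for Kdr, 0.024 for Esam and 0.0035 for Cdh5. Cldn5 was at -0.053 and Tek at -0.35. For mural cells 6 of 6 were higher, with sums of 70.9 to 89.2 CPM against 114 to 121 CPM. Microglia summed to 18.1 to 27.8 against 27.2 to 27.5 CPM, with 4 of 6 higher, and meninges to 71.6 to 421 against 119 to 259 CPM, with 1 of 4 higher. Every marker listed had counts in all 6 libraries, and the part of these markers in the members' differences was not tested.

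**Figure D5:**
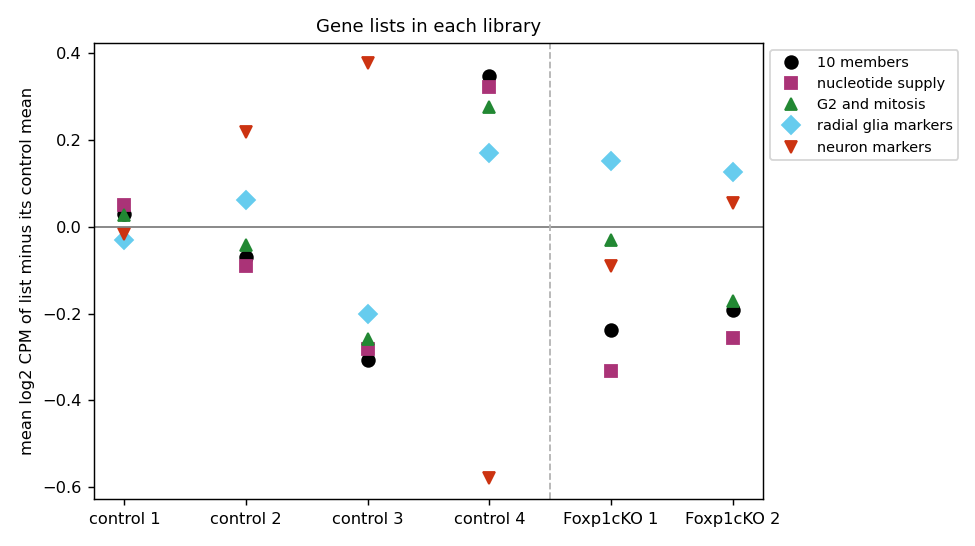
Mean log2 CPM of 5 gene lists in each library, minus the list's control mean (vertical axis), for the 10 members, nucleotide supply, G2 and mitosis, radial glia markers and neuron markers. In control 4 neuron markers are lowest and the other 4 lists are above 0, and in control 3 the reverse holds. In both libraries labelled Foxp1cKO the members, nucleotide supply and G2 and mitosis genes lie below 0. Radial glia markers lie above 0 there, and neuron markers lie on either side of it.

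The genes outside the set whose log2 CPM over the 6 libraries was most like the mean of the 10 members were Mre11a, a nuclease of double-strand break repair, with a Pearson's r of 0.998, Rrm1, the large subunit of ribonucleotide reductase, with 0.998, Mtx2 with 0.996, Etfa with 0.996 and Nup43 with 0.995. They were picked from all genes with a mean of at least 100 counts, and the points share their library and depth. Rrm1 was at 409, 384, 331 and 504 CPM in controls 1 to 4 and at 340 and 346 CPM in the libraries labelled Foxp1cKO, with control 4 highest and control 3 lowest, as for the members.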

How the data were processed

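Total RNA of the lateral cortex was sequenced by the authors from stranded TruSeq libraries as paired-end reads, mapped to mm10 with STAR and counted per gene with HTSeq. The submitters' processing notes also name FastQC 0.11.9, HTSeq 0.9.1, R 4.0.3 and DESeq2 1.30.1. The deposited table holds raw counts per gene after the authors' filter on low counts; the strand setting of the counting is not given in the sources used here. A deposited table of transformed values was not used. Gene IDs were given symbols from GENCODE M21 (17047 of 17068 matched, without ID version), which also supplied positions (GRCm38) and exon lengths.

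Groups came from the sample labels. Counts were fitted on all genes with group alone in edgeR 4.0.16 (TMM, glmQLFit, glmQLFTest; R 4.3.3), and p-values were adjusted by Benjamini-Hochberg across the whole table (threshold 0.05). The litter in the authors' model is not in the labels and was not used. Log2 CPM used a prior count of 2. The fit was tested on simulated data. The members and lists were chosen with earlier results of these data known. Named genes were the members, Foxp1, the other MCM, RFC and clamp genes, the 2 largest and 2 smallest log2 fold changes of each other list and the 5 genes most like the members. Genes overlapping a member, Nkx2-1, Flt1 and the other endothelial markers, Rrm1's values and example markers were named after their values were seen. Nothing in the labels says that libraries came from separate litters, and p-values measure the spread between these libraries. The chi-square per gene was 25.9 to 193 between controls and 31.4 between the libraries labelled Foxp1cKO, so none was a repeat of another. Alternatives were DESeq2 1.42.0, limma-voom 3.58.1, other normalizations, a low-count filter (at least 1 CPM in 2 libraries), each library left out, a replicate block, another gene length and another prior count.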

Additional observations from a re-analysis of the deposited data

Results flagged for a closer look

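The summed erythroid marker level among the controls was the 1 outlying value of 30 groups tested for a control that stands apart. Control 4 was at 3400 CPM against 1303, 1005 and 1049 CPM in controls 1 to 3, and its gap to the nearest control was 0.8756 of the whole range. Chance alone flags about 1 in 20 such groups. Control 4 was also the highest control for all 10 members, none of which stood apart by this measure, and its part in their levels was not tested beyond the refits without it.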

How the results depend on the processing

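No member passed the adjusted threshold under any alternative, none of which modelled litter. All 10 kept a negative estimate except without control 4, when Mcm3 (0.041), Mcm6 (0.053) and Cdc6 (0.049) were positive. With single libraries left out, these 3 genes lay between -0.24 and 0.041, -0.23 and 0.053, and -0.24 and 0.049, each lowest without control 3. The median of the members lay between -0.34 without control 3 and -0.14 without control 4. Over all genes, 26 passed in edgeR, 507 in DESeq2 (197 lower and 310 higher), 63 with controls 1 and 2 alone, a comparison added after seeing the data, and 2 to 96 when single libraries were left out. The 96 came without control 4, and the other single omissions gave 2 without control 2, 3 without Foxp1cKO 2, 6 without control 1, 9 without Foxp1cKO 1 and 20 without control 3. Leaving out a library labelled Foxp1cKO assumes that the lone remaining library varies like the controls. DESeq2 called 1 gene of the pathway lists, against 0 in edgeR. Where the median of all genes moved by normalization, it moved by under 0.1 on the log2 scale. The cause of these differences was not tested.

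With the replicate block, 0 genes passed and the members' median was -0.23, with 3 members at an unadjusted p under 0.05, where 7.78% of all genes were called lower. Controls 3 and 4 have no same-numbered library labelled Foxp1cKO, so they do not enter this group estimate. It therefore rests on the same libraries as the fit with controls 1 and 2 alone. Deviations of same-numbered libraries correlated at -0.198 for number 1 and 0.0157 for number 2. The deviations of the 2 libraries labelled Foxp1cKO from their own mean mirror each other. These values therefore cannot tell whether same-numbered libraries share a litter. Counting error was at most 0.035 on the log2 scale, against a control SD of 0.20 for Rfc3 to 0.34 for Cdc6. What sets the width of the intervals was not tested.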
